A study of Mus musculus with 9 samples.

Results

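Genes for the noncollagenous extracellular matrix were followed in mouse liver by RNA sequencing: the glycoproteins Sparc, Tnc, Thbs1, Fn1 and Fbn1, the small leucine-rich proteoglycans Bgn and Lum, the leucine-rich repeat protein gene Islr, and the lysyl oxidases Lox and Loxl2. The 10 genes were found by their symbols among 27945 genes in the deposited gene table, and all 10 passed the filter on low counts that left 18113 genes to test. They were chosen by their expression values and differences in all 9 libraries, so their fold changes and counts past a threshold are given as a description, with no test. The livers fell into 3 groups of 3 libraries: livers labelled treated, livers labelled model, and control livers. The sample titles read mouse liver cells, and the groups are called livers here for short. The series title ties the study to liver damage caused by gefitinib, an inhibitor of the EGF receptor tyrosine kinase, but the sample labels give no agent, dose, time, strain, sex or age for any group. They do not say what the treated livers received beyond the word, nor whether each replicate is its own animal, and each p-value is therefore measured against the scatter of libraries that may be technical.

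The matrix of the liver is a mesh of collagens, glycoproteins and proteoglycans laid down mostly by hepatic stellate cells and portal fibroblasts. Fibronectin and fibrillin form fibrils on which other proteins assemble, small leucine-rich proteoglycans bind collagen fibrils and set their spacing, and lysyl oxidases cross-link collagen and elastin. Matricellular proteins such as SPARC, tenascin-C and thrombospondin-1 bind the mesh and cell surface receptors without being main structural parts of it. The hepatocyte is the source of plasma fibronectin, which leaves out the extra domains EDA and EDB that the cellular form can hold.

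The parts of the Fn1 mRNA that tell these forms apart are short, and the junction sequences show where they differ. Each line holds the end of one exon in lower case and the start of the next exon in capitals, from the GRCm38 genome on the minus strand of chromosome 1.
Fn1 EDA included: aaactgcagtgaccaACATTGATCGCCCTA
Fn1 EDA skipped: aaactgcagtgaccaCCATTCCTGCGCCCA
Fn1 EDB included: ataccgttgtcccagAGGTGCCCCAGCTCA
Fn1 EDB skipped: ataccgttgtcccagCTGTCCCTCCTCCCA
The EDA exon is 270 bases long, at chr1:71603660-71603929, and the EDB exon is 273 bases long, at chr1:71613763-71614035.

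Promoters were read from RefSeq (GRCm38.p6) for 5 of the 10 genes, and those of Sparc, Bgn and Tnc are shown because these genes span the pattern described below: Sparc and Bgn were both higher in treated than in model livers and lay closer to control livers, whereas Tnc was highest in treated livers and near 0 in control livers. Capitals mark matches to a GC box (GGGCGG, either strand) or a TATA box (TATAAA, either strand).
Sparc promoter, chr11:55420031-55420330, minus strand: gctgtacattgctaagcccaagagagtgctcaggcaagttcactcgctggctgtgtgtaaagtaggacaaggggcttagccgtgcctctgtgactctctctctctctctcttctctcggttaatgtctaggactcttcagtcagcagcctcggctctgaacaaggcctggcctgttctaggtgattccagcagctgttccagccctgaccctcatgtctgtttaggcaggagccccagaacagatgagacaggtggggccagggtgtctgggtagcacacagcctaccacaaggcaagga
Bgn promoter, chrX:73483351-73483650, plus strand: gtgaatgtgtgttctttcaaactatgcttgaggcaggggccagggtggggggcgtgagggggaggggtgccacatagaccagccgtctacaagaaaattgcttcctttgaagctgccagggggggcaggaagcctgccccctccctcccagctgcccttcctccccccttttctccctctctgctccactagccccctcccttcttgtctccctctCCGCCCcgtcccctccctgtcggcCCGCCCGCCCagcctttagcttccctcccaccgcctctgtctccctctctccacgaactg
Tnc promoter, chr4:64046966-64047265, minus strand: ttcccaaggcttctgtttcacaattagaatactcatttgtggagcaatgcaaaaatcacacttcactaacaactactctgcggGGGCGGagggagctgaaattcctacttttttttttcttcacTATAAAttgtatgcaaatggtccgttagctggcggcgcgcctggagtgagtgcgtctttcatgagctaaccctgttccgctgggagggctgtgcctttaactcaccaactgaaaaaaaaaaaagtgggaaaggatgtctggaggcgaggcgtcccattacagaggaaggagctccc
Both strands were also searched for an AP-1 site, spelled TGANTCA. The CCAAT box, by the letters of its name, and a TEAD site, spelled GGAATG, were searched likewise. The Bgn promoter held 3 GC boxes, 1 of them overlapping another, and the Tnc promoter shown held 1 GC box and 1 match to the TATA box letters. That match lay at bases -126 to -121 from the start site. A further RefSeq entry for Tnc, chr4:64046887-64047186, is not shown and held the same match at -205 to -200 from its own start site. That entry also holds the letters TATATAAG closer to its start site, beyond the end of the window shown. The search took exact letters only, so this variant was not counted as a TATA box. The Sparc window held none of the 5 motifs. Of 32851 RefSeq promoters of the same length, 35.7% held a GC box, 13.6% a TATA box, 37.4% a CCAAT box, 14.7% a TEAD site and 7.81% an AP-1 site. Both RefSeq start sites of Tnc lie outside the span that the deposited table gives for the gene. The Sparc window lies inside the span given there for Sparc, chr11:55394500-55423183, so it is not the flank upstream of that span.

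Levels are given as CPM, a share of each library's counts: the deposited estimated counts are divided by the library total and its TMM factor and scaled to a common size. Totals were 56440871 to 60665156 counts per library, and 20579 to 21441 genes had a count. Hepatocyte markers summed to 71720–89667 CPM in treated livers, 93955–97499 CPM in model livers and 93648–105402 CPM in control livers. Skeletal muscle markers summed to 191–228 CPM in the treated libraries, to 264, 18.8 and 14.1 CPM in model replicates 1, 2 and 3, and to 21.1–42.5 CPM in the control libraries, higher in all 3 treated libraries and in model replicate 1 than in the other 5. Among them Myh4, a fast muscle myosin, had 36.1 to 53.5 CPM in the treated libraries and 64.6 CPM in model replicate 1, against 0 CPM in model replicates 2 and 3 and at most 0.205 CPM in control libraries. In the 5 libraries with low sums, most of the sum came from Neb, which did not follow this pattern. Neb had 14.4 to 21.9 CPM in the treated libraries, 18.4, 17.5 and 12.9 CPM in model replicates 1, 2 and 3, and 18.8 to 41.8 CPM in control libraries. The part of muscle RNA in the values of the matrix genes was not tested.

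In treated livers, 8 of the 10 matrix genes were higher than in model livers at an adjusted p under 0.05 over all genes tested (edgeR's quasi-likelihood test), and none was lower. Over all genes tested, 9.65% passed in this comparison, 5.21% higher and 4.44% lower, and since these values chose the genes nothing is read from the difference. The median log2 fold change of the 10 genes was 1.54, with a range from -0.17 for Fn1 to 3.04 for Lox, beside a median of 0.0052 over all genes. The 3 treated libraries lay above the 3 model libraries without overlap for 9 of the 10 genes, all but Fn1, and 16.2% of all genes tested did so in that direction. Against control livers, 5 of the 10 genes were higher in treated livers (Tnc, Thbs1, Lum, Lox and Loxl2), where 17.8% of all genes passed in either direction, 9.36% higher and 8.47% lower. The treated libraries lay above the control libraries without overlap for the same number of genes, 5, and 19.3% of all genes tested did so. In model livers, Sparc and Islr were lower than in control livers, where 1.12% of all genes passed in either direction, 0.519% higher and 0.596% lower. The model libraries lay below the control libraries without overlap for 5 genes (Sparc, Fbn1, Bgn, Islr and Loxl2) and above them for Fn1, as did 10.2% and 9.71% of all genes tested. The medians of the 10 genes were 0.84 for treated versus control and -0.44 for model versus control. Each pair of comparisons shares 1 group of libraries, so the 3 sets of values are not independent.

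**Figure D1:**
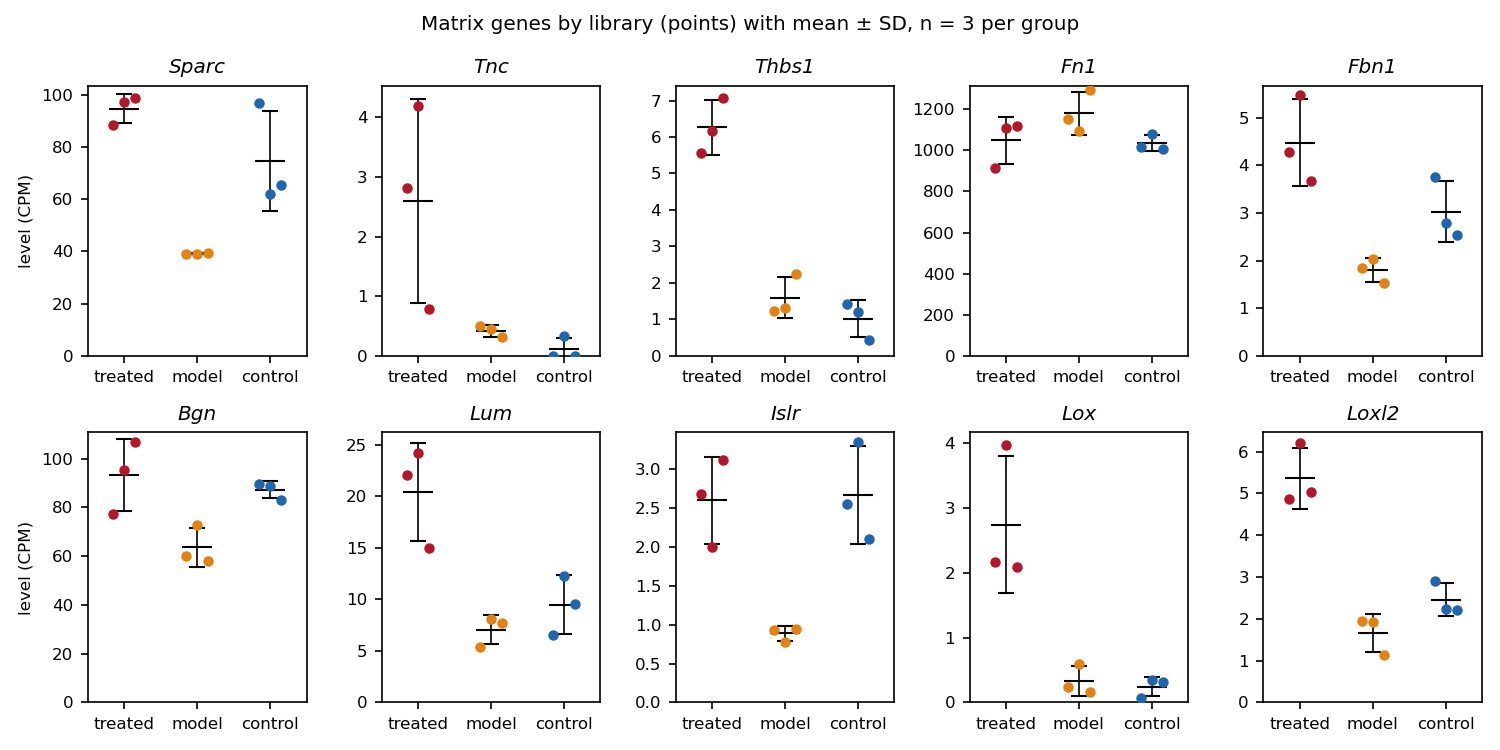
Level in CPM (linear axes from 0) of each of the 10 matrix genes in treated, model and control livers. Points are libraries, and bars give the mean ± SD of 3 libraries; Sparc, Fbn1, Bgn and Islr are lowest in the model group, Thbs1, Lum, Lox and Loxl2 highest in the treated group, and Fn1 is between 917 and 1294 CPM throughout.

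Sparc (chr11:55394500-55423183, minus strand, GRCm38 as below), which encodes osteonectin, a collagen-binding matricellular protein, had 88.2, 97.2 and 98.6 CPM in treated livers, 39.1, 39.1 and 39.5 CPM in model livers, and 96.7, 62.0 and 65.3 CPM in control livers. The model libraries were nearly equal to each other and lay below every other library, while the treated range overlapped that of the control libraries through control replicate 1. The log2 fold change was 1.27 ± 0.15 (SE) for treated versus model, 0.34 ± 0.15 for treated versus control and -0.93 ± 0.15 for model versus control. Without control replicate 1 the treated versus control value was 0.57 and passed the threshold, and without any 1 of the model replicates the model versus control value, -0.92 to -0.93, no longer passed it.

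Tnc (chr4:63959785-64020725, minus strand) encodes tenascin-C, a matricellular protein made in wounds and at low levels in most adult tissue. It had 2.82, 4.19 and 0.787 CPM in treated livers, 0.504, 0.450 and 0.315 CPM in model livers, and 0, 0.327 and 0 CPM in control livers. The coefficient of variation of the treated libraries, 65.9%, was the highest of the 10 genes in that group, and treated replicate 3 was much nearer to the model libraries than the other 2. On the log2 scale the change was 2.61 ± 1.11 for treated versus model, 4.57 ± 1.26 for treated versus control and 1.96 ± 1.20 for model versus control. The control group held 17 counts in all, from control replicate 2, so the treated versus control value depends on how a count of 0 is handled: it ran from 1.79 to 10.28 over the 17 alternative analyses and lost the threshold in 10 of them. A count of 0 in a library allows up to about 0.05 CPM (3 counts, counting error only).

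Thbs1 (chr2:118111876-118127133, plus strand) encodes thrombospondin-1, which binds CD47 and activates latent TGF-beta. It had 5.57, 6.17 and 7.07 CPM in treated livers, 1.22, 1.32 and 2.26 CPM in model livers, and 1.43, 1.19 and 0.448 CPM in control livers. Every treated library lay above the model and control libraries, and the model and control ranges overlapped. Its fitted log2 fold change was 1.97 ± 0.41 for treated versus model, 2.61 ± 0.42 for treated versus control and 0.64 ± 0.41 for model versus control. Without model replicate 1 the first value was 1.81 and no longer passed. Platelets carry much thrombospondin-1, and the summed platelet and megakaryocyte markers ran from 7.77 to 30.6 CPM in treated livers, 8.59 to 17.1 CPM in model livers and 7.25 to 11.9 CPM in control livers. By treated replicate, the platelet sum was 14.8, 7.77 and 30.6 CPM beside 5.57, 6.17 and 7.07 CPM of Thbs1, and the part of platelets in these values was not tested.

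Fn1 (chr1:71585520-71653175, minus strand), which encodes fibronectin, was by far the most abundant of the 10 genes. It had 917, 1110 and 1119 CPM in treated livers, 1152, 1093 and 1294 CPM in model livers, and 1019, 1082 and 1007 CPM in control livers. The treated range overlapped both other groups, and the 3 model libraries lay above the 3 control libraries by a small margin. In the fit, the log2 fold change was -0.17 ± 0.12 for treated versus model, 0.02 ± 0.12 for treated versus control and 0.19 ± 0.12 for model versus control. On the FPKM scale, which is per length and takes no TMM factor, Fn1 ranked 534 of 27945 genes and made up 61.6–64.0% of the summed FPKM of the 10 genes in treated livers, 77.8–82.1% in model livers and 66.0–70.8% in control livers. The other 9 genes summed to 49.2–53.6 FPKM in treated livers, 19.3–23.6 FPKM in model livers and 30.1–38.5 FPKM in control livers, without overlap between the groups.

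Fbn1 (chr2:125300594-125507993, minus strand) encodes fibrillin-1, the backbone of elastic microfibrils. It had 4.28, 5.47 and 3.67 CPM in treated livers, 1.86, 2.03 and 1.54 CPM in model livers, and 3.75, 2.79 and 2.54 CPM in control livers. The model libraries were the lowest 3, and control replicate 1 reached into the treated range. The log2 fold change was 1.30 ± 0.27 for treated versus model, 0.56 ± 0.26 for treated versus control and -0.74 ± 0.27 for model versus control. Without model replicate 3 the first value was 1.20 and no longer passed the threshold.

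Bgn (chrX:73483602-73495933, plus strand) encodes biglycan, a small leucine-rich proteoglycan that binds collagen and TGF-beta. It had 77.4, 95.2 and 107 CPM in treated livers, 60.3, 72.8 and 57.9 CPM in model livers, and 89.6, 88.7 and 83.2 CPM in control livers. The treated libraries were above all model libraries and on both sides of the control libraries. Its fitted log2 fold change was 0.55 ± 0.13 for treated versus model, 0.10 ± 0.13 for treated versus control and -0.45 ± 0.13 for model versus control. The first of these did not pass the threshold without model replicate 1 (0.51), model replicate 3 (0.49), treated replicate 2 (0.54) or treated replicate 3 (0.44).

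Lum (chr10:97565128-97572703, plus strand) encodes lumican, a second small leucine-rich proteoglycan, which organises collagen fibrils. It had 22.0, 24.2 and 15.01 CPM in treated livers, 5.42, 8.06 and 7.70 CPM in model livers, and 6.54, 12.3 and 9.57 CPM in control livers. Every treated library lay above every other library, and the model and control ranges overlapped. On the log2 scale the change was 1.53 ± 0.26 for treated versus model, 1.11 ± 0.26 for treated versus control and -0.42 ± 0.26 for model versus control, and all 17 alternatives kept the first 2 on the same side of the threshold. The ratio of Bgn to Lum on the FPKM scale was 1.41, 1.58 and 2.86 in treated livers, 4.47, 3.63 and 3.02 in model livers, and 5.51, 2.90 and 3.49 in control livers.

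Islr (chr9:58156268-58159221, minus strand) encodes a secreted protein with leucine-rich repeats and an immunoglobulin domain. It had 2.68, 2.00 and 3.12 CPM in treated livers, 0.937, 0.783 and 0.945 CPM in model livers, and 2.56, 3.35 and 2.11 CPM in control livers. The model libraries stood alone at the bottom, while the treated and control ranges overlapped almost entirely. In the fit, the log2 fold change was 1.55 ± 0.31 for treated versus model, -0.04 ± 0.30 for treated versus control and -1.59 ± 0.31 for model versus control. The last value did not pass the threshold in 11 of the 17 alternatives, among them those without any 1 of the 3 model or 3 control replicates, with values from -1.73 to -1.39 in these. The deposited table gives Islr a span that ends inside the GENCODE gene, and Islr2, which overlaps it on the same strand, had at most 0.126 CPM.

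Lox (chr18:52516067-52529867, minus strand) encodes lysyl oxidase, the founding enzyme of collagen and elastin cross-linking. It had 2.17, 3.97 and 2.09 CPM in treated livers, 0.234, 0.599 and 0.157 CPM in model livers, and 0.0715, 0.346 and 0.317 CPM in control livers. Every treated library lay above every other library, and the model and control ranges overlapped. On the log2 scale the change was 3.04 ± 0.66 for treated versus model, 3.48 ± 0.67 for treated versus control and 0.44 ± 0.65 for model versus control. The first did not pass the threshold without model replicate 1 (2.85), model replicate 3 (2.71) or treated replicate 2 (2.68), whereas all 17 alternatives kept the second past it.

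Loxl2 (chr14:69609068-69695834, plus strand) encodes a secreted lysyl oxidase-like enzyme with scavenger receptor domains that acts on collagen IV. It had 4.86, 6.201 and 5.02 CPM in treated livers, 1.95, 1.91 and 1.14 CPM in model livers, and 2.91, 2.23 and 2.22 CPM in control livers. The 3 groups did not overlap, with the treated libraries highest and the model libraries lowest. The log2 fold change was 1.68 ± 0.28 for treated versus model, 1.13 ± 0.28 for treated versus control and -0.56 ± 0.28 for model versus control. The second did not pass the threshold without control replicate 2 (1.06), control replicate 3 (1.06) or treated replicate 2 (1.01). The ratio of Loxl2 to Lox in FPKM was 1.38 to 2.12 in treated livers, 2.85 to 7.50 in model livers and 5.997 to 36.2 in control livers. Lox had only 13, 36 and 9 counts in the model libraries and 4, 18 and 17 in the control libraries. The value of 36.2 rests on the 4 counts of control replicate 1. Control replicates 2 and 3, at 5.997 and 6.25, lay within the model range. Gm27177, an antisense gene within Loxl2, had at most 0.897 CPM, and whether counting used the strand is not given in the sources used here.

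**Figure D2:**
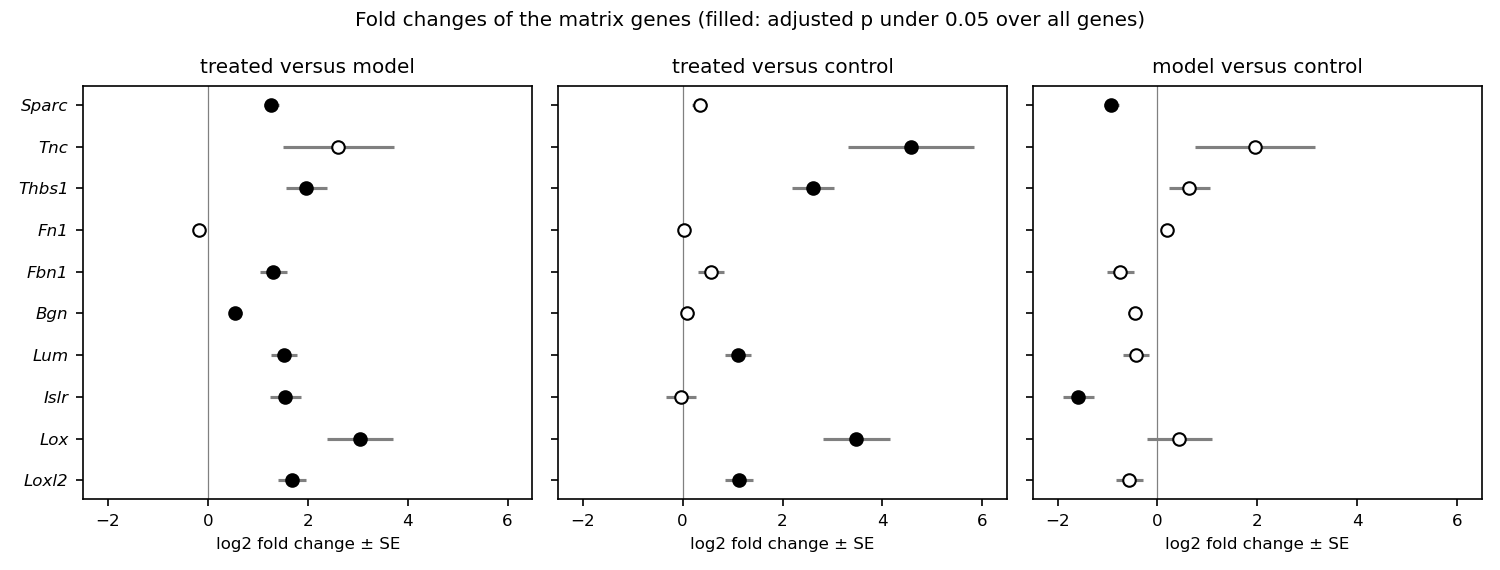
Log2 fold change ± SE of the 10 matrix genes in the 3 comparisons. Filled points passed an adjusted p of 0.05 over all genes tested, 8 in treated versus model, 5 in treated versus control and 2 in model versus control; Fn1 stays near 0 in all 3 panels, and the widest intervals are those of Tnc and Lox.

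By mean FPKM over the 9 libraries, Sparc ranked 1975, Bgn 2625, Lum 5251, Islr 11807, Loxl2 12512, Thbs1 12992, Fbn1 14839, Lox 15007 and Tnc 16541 of 27945 genes. In treated livers the mean FPKM was 24.1 ± 0.66 for Sparc, 14.7 ± 1.87 for Bgn and 8.09 ± 2.03 for Lum (SD, n = 3), and these ranges did not overlap. Below them, Thbs1 at 0.994 ± 0.088, Loxl2 at 0.957 ± 0.12 and Islr at 0.934 ± 0.20 FPKM did not differ in treated livers beyond their spread. In control livers, Thbs1 at 0.138 ± 0.071 FPKM stood below Islr at 0.818 ± 0.17 FPKM and Loxl2 at 0.377 ± 0.073 FPKM, and the order of these 3 genes was thus different there. Over the 9 libraries, the pair of matrix genes whose centred log2 CPM profiles were most alike was Sparc and Fbn1, with a root mean square difference of 0.200, and the next was Fbn1 and Loxl2 at 0.272. All 10 genes carry the Gene Ontology term extracellular region, held by 4.6% of all genes, and 8 of 10 the term collagen-containing extracellular matrix, held by 0.959%. The genes were gathered as matrix genes, so these shares follow from their choice.

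Among 11988 genes with a mean of at least 1 CPM, the profile closest to Sparc was that of Ahr, the aryl hydrocarbon receptor, with a root mean square difference of 0.170 over the 9 libraries. Ahr averaged 49.8 CPM in treated livers, 20.9 CPM in model livers and 31.1 CPM in control livers, and it was also the closest gene to Fbn1, at 0.152. Fn1 was closest to Bcl2l13 (0.0594) and next to Cfb, complement factor B (0.0679). Bgn was closest to Ccdc186 and Atp1b3, Lum to Acss1 and Ets2, and Loxl2 to Fabp4 and Ckap4. For Thbs1 the closest were Fblim1 and Gpr35, for Lox Bcl2a1b and Tsku, and for Tnc Gpx2 and Lysmd2, with wider differences of 0.374 to 0.712 for these 3 genes.

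Transcript estimates gave a further readout, since the shares of transcripts within a gene were not used to choose the genes. Of the 10 genes, 5 had at least 2 transcripts past the filter (Sparc, Fn1, Fbn1, Bgn and Islr), and none had unequal transcript changes at an adjusted p under 0.05 in any of the 3 comparisons (edgeR's diffSpliceDGE with the Simes test over 8792 genes). Of all genes tested, 0.535% passed in treated versus model, 0.648% in treated versus control and 0.466% in model versus control. Without adjustment, 1 of the 5, Fn1, fell under 0.05 in model versus control (edgeR adjusted p = 0.622), and 0 did in the other comparisons. With the F test, 0 passed the adjusted threshold in any comparison. The estimates moved widely between replicates: the shorter of the 2 main Sparc transcripts held 0, 0.729 and 71.4% of the Sparc FPKM in the model libraries, and each library assigned the whole Fbn1 level to 1 of 2 transcripts. For Bgn, by contrast, 1 protein-coding transcript held 98.8% to 99.96% of the FPKM in each of the 9 libraries.

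In Fn1, 7 full-length transcripts carry different sets of exons, 4 with EDA and 1 with EDB. EDA-containing transcripts held 0.0719, 0.272 and 0.172% of the full-length FPKM in treated livers, 0.188, 0.0737 and 0.0978% in model livers, and 0.0874, 20.7 and 0.108% in control livers. The value of control replicate 2, 20.2 of 97.7 FPKM, stood alone, and the transcript with EDB held at most 0.188% in any library. The variable exon near the end of the gene exists in lengths of 107, 392 and 467 bases. The longest form held 30.1, 45.9 and 69.8% in treated livers, 17.9, 31.6 and 55.4% in model livers, and 30.8, 79.8 and 13.8% in control livers, so the groups overlapped. A retained-intron transcript of 17 exons was assigned 3.37 to 119 FPKM, with no order by group.

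**Figure D3:**
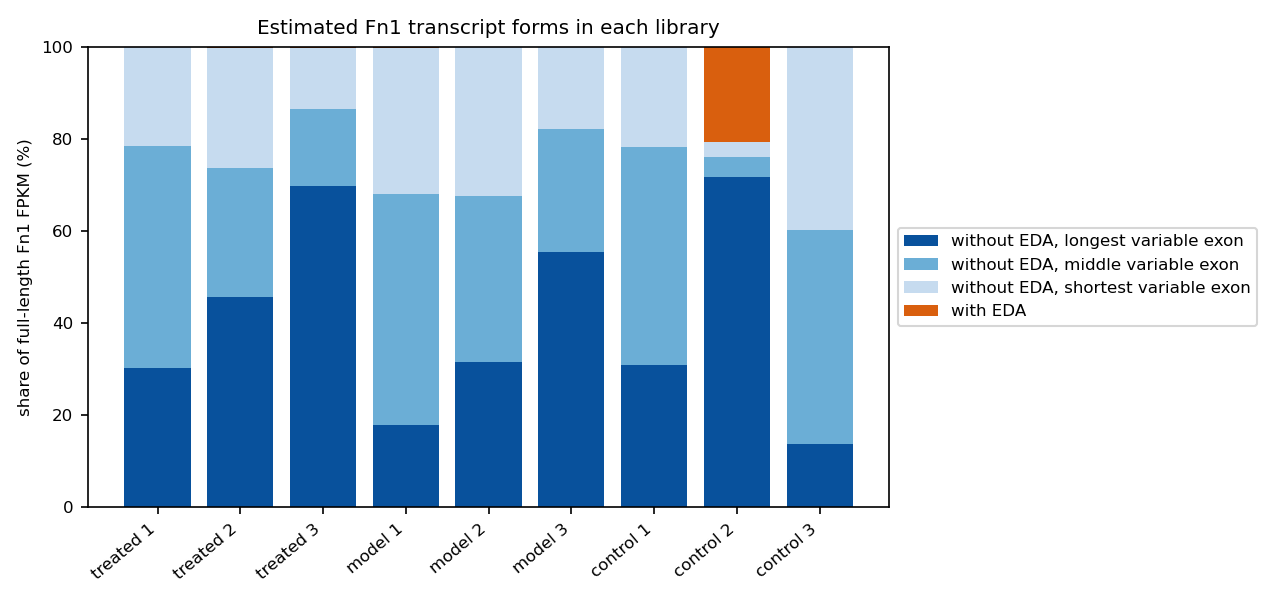
Share (%) of the FPKM of full-length Fn1 transcripts held in each library by transcripts with the EDA exon and by those without it, these split by the length of the variable exon. EDA-containing forms are visible in control replicate 2 alone, at 20.7%, and the other shares vary as much within groups as between them.

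Markers of the cells that make matrix moved unevenly. Over all genes tested, 5.21% were higher and 4.44% lower in treated than in model livers at the same threshold. The summed level of 15 portal fibroblast and myofibroblast markers was 279–376 CPM in treated livers, 65.6–83.3 CPM in model livers and 61.9–108 CPM in control livers, and 6 of its 14 tested genes were higher in treated than in model livers (edgeR adjusted p under 0.05). All 6 encode matrix proteins (Col1a1, Col1a2, Col3a1, Eln, Postn and Mfap4), and Eln, Postn and Mfap4 are also on the list of glycoproteins described below. Most of the sum came from the 3 collagens, with means of 147 CPM for Col3a1, 55.6 CPM for Col1a1 and 53.9 CPM for Col1a2 in treated livers, against 26.3, 7.68 and 11.8 CPM in model livers. The other 8 tested markers did not pass, among them Entpd2 (9.64 CPM in treated livers, 8.94 CPM in model livers), Thy1 (1.32 CPM in treated livers, 1.79 CPM in model livers), Myh11 (1.15 CPM in treated livers, 1.27 CPM in model livers) and the contractile genes Acta2 (3.72 CPM in treated livers, 1.48 CPM in model livers) and Tagln. The 15 hepatic stellate cell markers summed to 209–269 CPM in treated livers, 221–243 CPM in model livers and 290–343 CPM in control livers, and 2 of 15 (Nes and Cygb) were higher in treated than in model livers. Against control livers, 3 of the 15 were higher and 5 lower in treated livers, beside 9.36% and 8.47% of all genes. Macrophage markers summed to 1017–1178 CPM in treated livers, 361–478 CPM in model livers and 252–389 CPM in control livers, and 5 of 15 were higher in treated than in model livers (Gpnmb, Lyz2, Mpeg1, Cd68 and Itgam). Gpnmb, Lyz2 and Mpeg1 carried most of the treated sum, at 254, 261 and 183 CPM in treated livers against 7.47, 40.4 and 52.2 CPM in model livers, whereas the Kupffer cell markers Clec4f (112 CPM in treated livers, 119 CPM in model livers), Timd4 (5.85 CPM in treated livers, 6.05 CPM in model livers) and Vsig4 (20.8 CPM in treated livers, 20.7 CPM in model livers) did not pass. Liver endothelial markers summed to 93.7–146 CPM in treated livers, 176–192 CPM in model livers and 408–475 CPM in control livers. Of these 14 markers, 5 were lower in treated than in model livers and 0 higher, and all 14 were lower than in control livers. In bulk RNA, fewer cells of a type and less RNA per cell cannot be told apart, and the part of these cell types in the values of the matrix genes was not tested.

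**Figure D4:**
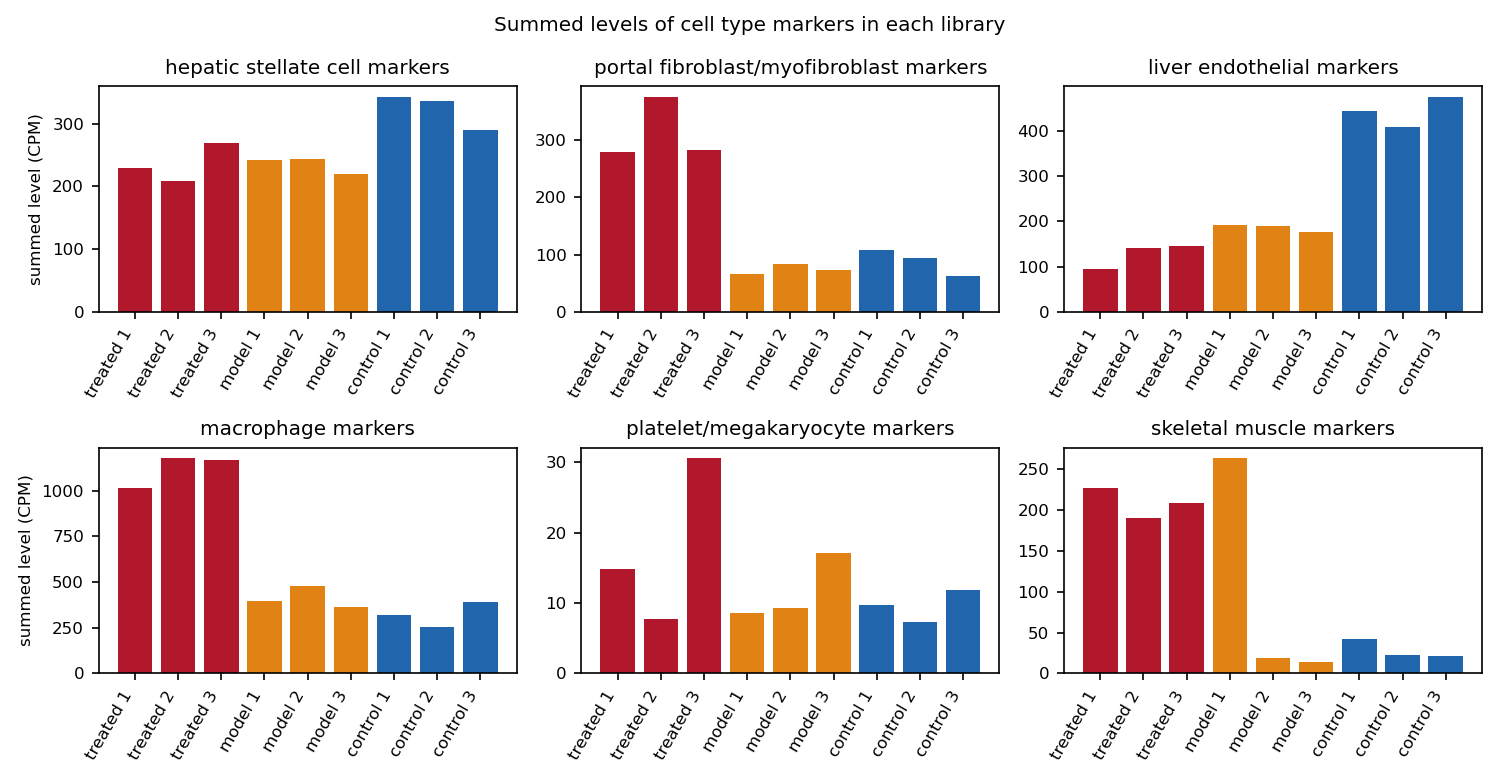
Summed level in CPM of 6 marker lists in each of the 9 libraries (linear axes from 0; red bars are treated, orange bars model and blue bars control libraries). Portal fibroblast and myofibroblast markers and macrophage markers are highest in the 3 treated libraries, stellate cell and endothelial markers in the 3 control libraries, and the muscle sum is high in the treated libraries and model replicate 1.

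Other genes of the matrix were read from 6 lists that hold none of the 10 genes, with calls from the edgeR test over all genes. The lists were made with earlier results of these data known, so their shares of calls are given as a description. In treated versus model livers, 12 of 51 other matrix glycoproteins were higher and none lower, 3 of 24 other proteoglycans were higher and none lower, and 5 of 26 cross-linking and collagen-processing genes were higher and none lower. Likewise 3 of 34 glycosaminoglycan chain enzymes were higher and none lower, 3 of 23 matrix receptors were higher and 1 lower, and 4 of 32 genes of TGF-beta and mechanical signalling were higher and 1 lower. Read against the 5.21% and 4.44% of all genes that were higher and lower, the glycoproteins and the cross-linking genes had the largest shares of higher calls, at 23.5% and 19.2%, with list medians of 0.53 and 0.49 on the log2 scale. Across the 6 lists, 32 genes were called in the main analysis. Counting also genes called only with a library left out, 14 were called without model replicate 1 and 16 without model replicate 3. Likewise 20 were called without treated replicate 1, 18 without treated replicate 2 and 20 without treated replicate 3. Of the 32 genes, 10 passed in each of the 17 alternatives: Nid1, Postn, Eln, Svep1, Serpinh1, Adamts2, Tgm2, Ugdh, Cd44 and Mrtfa. The other 22 lost the call in 2 to 11 alternatives.

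Among the glycoproteins, Nid1, a basement membrane linker of laminin and collagen IV, averaged 31.8 ± 7.69 CPM in treated livers, 9.18 ± 1.64 CPM in model livers and 13.0 ± 2.28 CPM in control livers (SD, n = 3), a log2 fold change of 1.79 ± 0.21 for treated versus model (edgeR adjusted p = 0.00064). Postn, the matricellular protein periostin, rose by 1.78 ± 0.24 and Svep1 by 2.27 ± 0.41 on the same scale. Svep1 was low, at 1.83 CPM in treated livers and 0.376 CPM in model livers. The most abundant genes of this list, Vtn (vitronectin, made by hepatocytes) at 2759 ± 366 CPM in treated livers and 2948 ± 40.6 CPM in model livers, Smoc1 at 131 and 155 CPM, and Ecm1 at 54.8 and 83.5 CPM, did not pass. Eln, Emilin1, Mfap4, Efemp2, Ltbp3, Lama2, Lamc1, Mgp and Sparcl1 were the other 9 that rose. Among the closest relatives of the 10 genes, a grouping made after the values were seen, Sparcl1 was higher in treated livers at 10.996 ± 1.44 CPM than in model livers at 4.38 ± 0.82 CPM, whereas Smoc2 was not called in this comparison (log2 fold change 0.53 ± 0.33). Ltbp3, a latent TGF-beta binding protein related to fibrillin, rose by 1.29 ± 0.29, and its relatives Ltbp1, Ltbp2, Ltbp4 and Fbn2 did not pass. Neither did the tested relatives of Thbs1 and Tnc: Thbs2 (0.79 ± 0.33), Thbs3 (-0.37 ± 0.69) and Tnxb (0.19 ± 0.29).

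Of the small leucine-rich proteoglycans on the list, which leaves out Bgn and Lum, 7 were tested and none passed in any of the 3 comparisons. The most abundant of these 7, Dcn (decorin), averaged 100.4 ± 12.4 CPM in treated livers, 80.6 ± 9.71 CPM in model livers and 121 ± 14.5 CPM in control livers, with a log2 fold change of 0.32 ± 0.13 for treated versus model. Tsku, the gene close to Lox in profile and annotated as a further small leucine-rich proteoglycan, was on none of the lists and is given after its values were seen. It averaged 291 ± 54.4 CPM in treated livers, 37.1 ± 23.2 CPM in model livers and 45.5 ± 24.3 CPM in control livers, a log2 fold change of 2.97 ± 0.57 for treated versus model. Tsku was found by its likeness to Lox over these same libraries, so this change is given as a description, with no test. The threshold over all genes was passed in the main analysis and lost in 6 of the 17 alternatives. Of the other proteoglycans, Vcan (versican) rose by 2.38 ± 0.52, Srgn (serglycin, of immune cell granules) by 1.22 ± 0.33 and Sdc3 (syndecan-3) by 0.67 ± 0.15 in treated versus model livers, while Sdc4, the most abundant, had 445 ± 121 CPM in treated livers and 338 ± 18.7 CPM in model livers and did not pass. Vcan was low, at 2.11 CPM in treated livers, 0.403 CPM in model livers and 0.207 CPM in control livers. The Srgn call was lost in 7 of 17 alternatives, the Sdc3 call in 4 and the Vcan call in 3, each of them leaving out 1 library.

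Among the cross-linking and processing genes, Loxl1 averaged 2.73 ± 0.82 CPM in treated livers, 0.635 ± 0.50 CPM in model livers and 1.60 ± 0.16 CPM in control livers, and its log2 fold change of 2.10 ± 0.51 for treated versus model passed (edgeR adjusted p = 0.028). Loxl3 and Loxl4, the 2 remaining lysyl oxidases, did not pass in any comparison. Serpinh1, the collagen chaperone HSP47, rose by 1.84 ± 0.22, Adamts2, the procollagen N-propeptidase, by 1.32 ± 0.24, and Tgm2, a transglutaminase that cross-links fibronectin, by 0.77 ± 0.095. Adamts14 was the fifth gene of the list to rise. The abundant P4hb, Ppib and Bmp1 did not pass; Bmp1, which cleaves procollagen and the Lox propeptide, had 137 ± 10.9 CPM in treated livers and 161 ± 24.0 CPM in model livers.

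Of the enzymes that build glycosaminoglycan chains, Ugdh, which makes the UDP-glucuronate they use, averaged 377 ± 65.5 CPM in treated livers, 201 ± 24.3 CPM in model livers and 100 ± 14.7 CPM in control livers, and it passed in all 3 comparisons. Xylt1, which starts chains on core proteins such as that of biglycan, rose by 2.27 ± 0.49 and Csgalnact2 by 0.65 ± 0.17 in treated versus model livers. Xylt1 was low, at 1.62 CPM in treated livers and 0.334 CPM in model livers. Among receptors, Cd44, the hyaluronan receptor, averaged 20.2 ± 3.45 CPM in treated livers, 4.96 ± 1.20 CPM in model livers and 3.56 ± 1.45 CPM in control livers (log2 fold change 2.03 ± 0.30 for treated versus model, edgeR adjusted p = 0.0026). Itga5, a fibronectin receptor subunit, rose by 0.55 ± 0.12, Itgb5 also rose, and Itga7, a laminin receptor subunit, fell by 0.75 on the log2 scale. Of the signalling genes, Tgfb1 averaged 9.68 ± 0.13 CPM in treated livers and 4.28 ± 1.60 CPM in model livers, Tgfbr2, Skil and Mrtfa also rose, and Inhba fell to 7.48 CPM in treated livers, against 17.9 CPM in model livers. Of the 17 alternatives, the call was lost in 11 for Itgb5, 9 for Inhba, 6 each for Csgalnact2, Tgfb1 and Tgfbr2, 5 each for Itga7 and Skil, 3 for Itga5 and 2 for Xylt1.

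**Figure D5:**
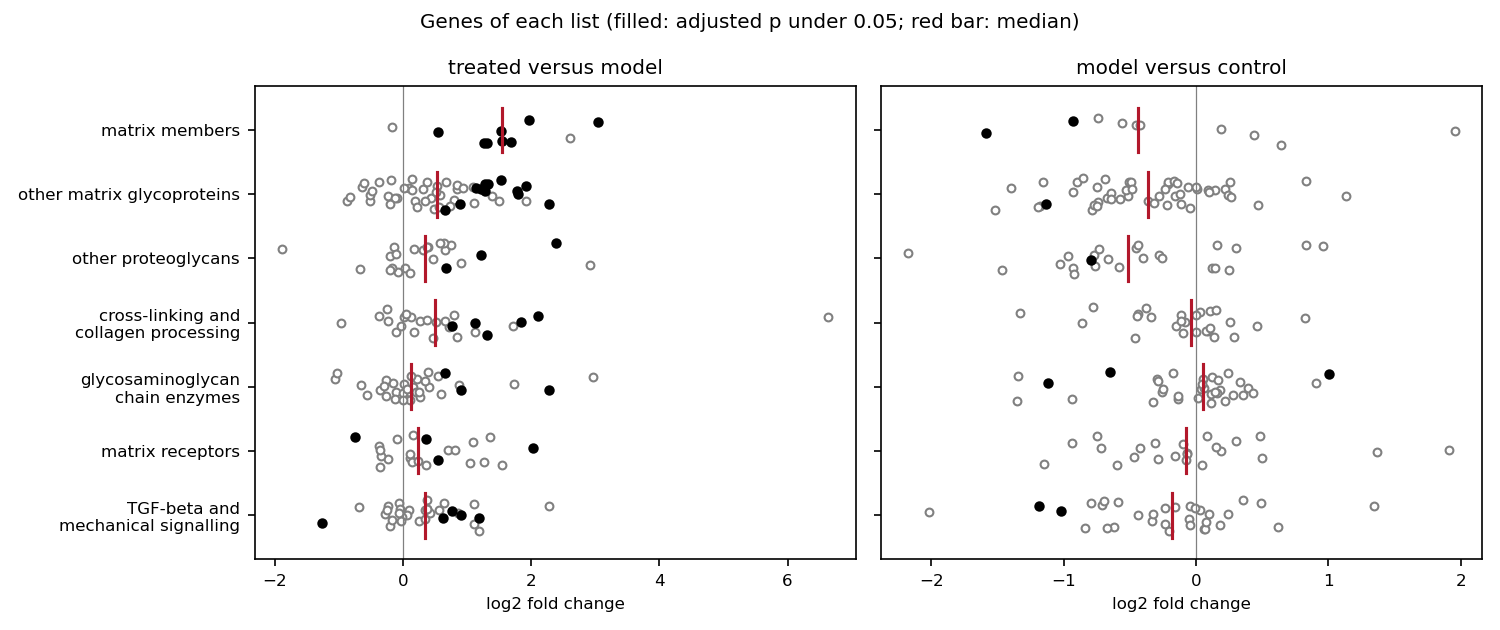
Log2 fold change of every tested gene in the 10 matrix genes and 6 further lists, for treated versus model (left) and model versus control (right). Filled points passed an adjusted p of 0.05 over all genes tested and red bars are list medians, which for the matrix genes are 1.54 on the left and -0.44 on the right.

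Against control livers, the treated livers had calls in both directions: 7 higher and 5 lower of 51 other glycoproteins, 2 and 3 of 24 proteoglycans, 5 and 2 of 26 cross-linking and processing genes, 3 and 3 of 34 chain enzymes, 4 and 4 of 23 receptors, and 4 and 4 of 32 signalling genes. Beside the 9.36% and 8.47% of all genes that were higher and lower, the shares were 8.3% and 12.5% for proteoglycans and 8.8% in each direction for chain enzymes, near the background, and 13.7% and 9.8% for glycoproteins, 19.2% and 7.7% for cross-linking and processing genes, 17.4% each for receptors and 12.5% each for signalling genes. Nid1, Postn, Svep1 and Sparcl1 were again higher, whereas Hspg2 (perlecan, of basement membranes) had 13.1 ± 0.85 CPM in treated livers and 24.4 ± 4.38 CPM in control livers and was lower (log2 fold change -0.90 ± 0.15). Between model and control livers, 7 of the 190 genes tested in the 6 lists passed (3.68%, beside 1.12% of all genes): Ugdh was higher, and Ltbp4, Hspg2, B3gat3, Chst15, Eng and Amotl2 were lower in model livers. Ltbp4 averaged 8.99 ± 1.48 CPM in model livers and 19.8 ± 5.10 CPM in control livers, and Hspg2 14.1 ± 1.41 CPM in model livers and 24.4 ± 4.38 CPM in control livers. Eng, which is also an endothelial marker, averaged 24.3 ± 0.19 CPM in model livers and 55.3 ± 6.01 CPM in control livers. Each of the 7 calls was lost in 2 to 11 of the 17 alternatives. Counting also genes called only with a library left out, the lists held 3 calls without control replicate 2 and 2 without control replicate 3. They held 2 calls without model replicate 1, 2 or 3.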

How the data were processed

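Polyadenylated mouse liver RNA was sequenced in 9 libraries with an Illumina protocol, per the labels' protocols. Reads were aligned with HISAT2 (version not given in the sources used here), per the submitters' processing notes; the counter, annotation and build are likewise not given there. The deposited tables hold estimated counts, as whole numbers, and FPKM per gene and per transcript, which the authors made; for 78.2% of 27826 genes the gene FPKM equalled, within 1%, the transcript FPKM times length summed over the union exon length. Of 27945 gene IDs, 27859 were in GENCODE M21 (GRCm38), 25083 with the same start and end.

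The matrix genes, gene lists and tests were chosen with earlier results of these data known. Genes passing edgeR's filterByExpr (minimum count 10, minimum total 15) were tested in 1 quasi-likelihood fit over the 9 libraries (edgeR 4.0.16, TMM scaling, robust dispersions, R 4.3.3), with 3 contrasts and Benjamini-Hochberg adjustment over 18113 genes. Transcript usage was tested with diffSpliceDGE on transcript counts, with the Simes test as the main one and the F test as an alternative. Likeness was the root mean square difference of centred log2(CPM + 0.1). The likeness result for Islr is not reported here. Errors are SD over 3 libraries, or the SE of the fit. Named list genes were the 3 most abundant of each list and the 3 with the smallest p among those called in treated versus model and in model versus control; others that passed are named after their values were seen. Alternatives were other scalings, no filter, DESeq2 1.42.0, limma 3.58.1 (voom, and log2(FPKM + 0.1)), the 2 groups alone, a replicate block, and each library left out. Replicates of a group differed beyond counting noise, so none was merged. Counting limits cover counting error only.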

Additional observations from a re-analysis of the deposited data

How the results depend on the processing

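All 10 matrix genes kept the sign of their treated versus model change in the 17 alternatives, except Fn1, at 0.0043 with limma on log2(FPKM + 0.1). The count of matrix genes past the threshold ranged over the left-out libraries from 5 to 9 in treated versus model (8 in the main analysis), 3 to 5 in treated versus control (5) and 0 to 2 in model versus control (2); the last was 1 with limma-voom, with limma on FPKM, with only the 2 groups compared and with the replicate block. List genes called numbered 14 to 34 in treated versus model (32), 34 to 46 in treated versus control (46) and 2 to 7 in model versus control (7) when a library was left out; the last was 4 with library totals, 18 with DESeq2, 3 with limma on FPKM and 4 with the replicate block. The block pairs libraries by number only, since deviations of same-numbered libraries correlated at -0.0756 to 0.0716, and it left 8 and 5 matrix genes in the first 2 comparisons. Scaling by library totals moved the median of all genes to 0.17 in treated versus model and 0.20 in treated versus control, and its calls to 1638 higher and 408 lower, and 3021 higher and 819 lower, against 943 and 805, and 1696 and 1535, with TMM. Some uncalled list genes changed sign in treated versus model: with library totals, Eng was at 0.093, Furin 0.12, Sdc1 0.086, Vtn 0.067 and Yap1 0.11. With limma on FPKM, they were at 0.075, 0.12, 0.088, 0.073 and 0.11 in that order. With a library left out, Eng ran from -0.221 to 0.142, Furin from -0.113 to 0.055, Yap1 from -0.106 to 0.016 and P4hb from -0.039 to 0.058. The cause was not tested. Transcript usage gave 0 matrix genes in each of 13 alternatives. Genes near 1 CPM or less (such as Tnc, Lox, Vcan, Svep1 and Xylt1) are limited by depth.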
